A study of Saccharomyces cerevisiae with 6 samples.

Results

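The 10 genes described here carry out sulfate uptake, sulfate reduction and the synthesis of methionine in *S. cerevisiae*, and they are 10 of the 6389 genes outside the ribosomal DNA (rDNA) in which reads were counted. They were chosen by name with their difference between the WT and *rpa12Δ* libraries already known, so that difference is given as a description and no test is attached to it. Libraries were prepared by NET-seq, which sequences the RNA held by a polymerase. In both strains the RNA polymerase I (Pol I) subunit Rpa135 carried an HA tag. *RPA12* was intact in the strain called WT here and completely removed in *rpa12Δ*, which was made from it. Both strains were grown in YEPD, a rich medium, to an A600 of 0.3, and 3 biological replicates of each gave 1 library apiece. The RNA was recovered by immunoprecipitation of Pol I, which does not transcribe these 10 genes, and how their RNA came into the libraries was not tested. In bulk libraries, fewer cells with a transcript and less of it per cell cannot be told apart.

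Yeast takes up sulfate through the plasma membrane, activates it with ATP, reduces it to sulfite and then to sulfide, and joins sulfide to a carbon chain derived from homoserine to form homocysteine. Homocysteine is methylated to methionine or passed on to cysteine. Most genes of the pathway are switched on by the activator Met4, which is brought to DNA by Cbf1, Met31 and Met32 and is held inactive by the ubiquitin ligase subunit Met30 when sulfur-containing amino acids are plentiful.

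Levels are given in RPM, the number of read 5′ ends with the orientation of the gene's own RNA per 1000000 reads that the same library held outside the rDNA repeats of chromosome XII. The WT libraries held 1165143 to 1662542 reads outside the rDNA and the *rpa12Δ* libraries 4674042 to 4859324, so that 1 read was worth between 0.601 and 0.858 RPM for WT and between 0.206 and 0.214 RPM for *rpa12Δ*. Most of these reads lay in genes of noncoding RNAs. Genes were counted over their whole span, so reads of a noncoding RNA gene inside a protein-coding gene on the same strand counted for both. Counted in this way, protein-coding genes took 27.0, 25.03 and 25.4% of the reads outside the rDNA in WT replicates 1 to 3. In *rpa12Δ* they took 23.1, 20.6 and 20.02%, and all these shares are upper limits. Over the 2902 genes that averaged at least 10 RPM, the median log2 difference (*rpa12Δ* minus WT, on log2(RPM + 1)) was -0.26. Each value below can be set against that shift, which became 0.01 when reads in protein-coding genes were the denominator, 0.06 with median-ratio scaling and 0.10 with all reads of the library. *RPA12* held 8, 9 and 3 reads in WT and 0, 0 and 1 in *rpa12Δ*. The a-cell genes *STE2*, *STE6*, *BAR1*, *MFA1* and *MFA2* were all higher in every *rpa12Δ* library than in any WT library, with *STE2*, the receptor for alpha factor, at 2.41, 3.50 and 4.29 RPM in WT and 86.6, 72.7 and 75.1 in *rpa12Δ*. The alpha-cell genes *STE3*, *MF(ALPHA)1* and *MF(ALPHA)2* stayed between 0 and 3.01 RPM in all 6 libraries. The labels give neither mating type nor ploidy, and a difference in either cannot be told apart from the deletion of *RPA12* in any comparison below.

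Together, the 10 genes held 779, 683 and 585 reads in WT and 573, 491 and 466 in *rpa12Δ*, although the *rpa12Δ* libraries were deeper. This corresponds to 483 ± 17.3 RPM for WT against 107 ± 9.70 for *rpa12Δ* (SD, n = 3 each). Per 1000000 reads in protein-coding genes, the sums were 1874 ± 123 for WT against 505 ± 9.31 for *rpa12Δ* (SD, n = 3 each). All 10 genes had a lower mean in *rpa12Δ*. The median of their log2 differences was -2.08, beside -0.26 over all genes tested, and apart from *SUL1*, whose counts allow no fold, they lay between -3.86 for *SUL2* and -1.22 for *MET16*. For *SUL1*, the read counts of the strains overlapped, at 1 to 4 in WT and 0 to 2 in *rpa12Δ*, and only unequal depth separated them in RPM. In 9 of the 10, *SUL1* included, every *rpa12Δ* library lay below every WT library in RPM. This arrangement was found in 33.5% of the 2902 genes tested, but the 10 genes were chosen for this difference and not all of them were among those tested, so nothing is read from the comparison. Only 5 of the 10 averaged at least 10 RPM, namely *SUL2*, *MET5*, *MET10*, *MET17* and *MET6*, and *SUL2* did so through its WT level alone.

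**Figure D1:**
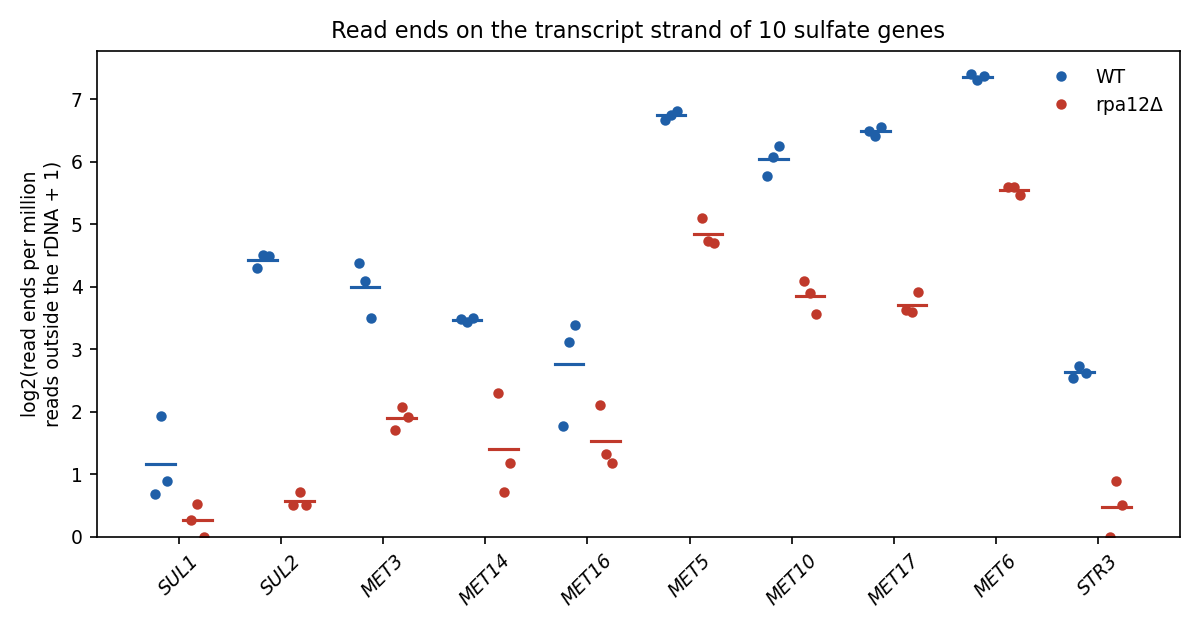
Levels of the 10 sulfate genes as log2(RPM + 1), with 1 point per library (WT in blue, *rpa12Δ* in red) and a line at the mean of 3 libraries. On this scale the strains overlap for *MET16* alone, although the read counts of *SUL1* overlap too. *SUL2* has the widest gap, with WT libraries between 18.6 and 21.7 RPM and *rpa12Δ* libraries between 0.412 and 0.642.

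Sulfate enters the cell through the permeases Sul1 and Sul2. *SUL2* (YLR092W, chromosome XII, 323544 to 326225, R64 build) had 31, 31 and 25 reads in the WT libraries, compared with 2, 3 and 2 in the mutant. These counts are 18.6, 21.7 and 21.5 RPM in WT and 0.412, 0.642 and 0.425 in *rpa12Δ*. Each WT library was thus far above each mutant library. The spread within a strain was small, but in *rpa12Δ* it rested on 2 or 3 reads per library. These levels lie below the pseudocount of 1 RPM, which narrows the spread on the log2 scale. The log2 difference was -3.86 (SE 0.10, n = 3 each) with the pseudocount of 1 RPM used throughout, but -5.14 with 0.1 RPM and -1.54 with 10 RPM, so its size depends on that setting. Summed over libraries, the WT level was 41.6 times that of *rpa12Δ* (exact 95% interval 19.4 to 107), an interval that covers counting error only, as do the others below, since PCR copies are not independent molecules.

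The second permease was almost without signal in both strains. *SUL1* (YBR294W, chromosome II, 789235 to 791814) held 1, 4 and 1 reads in WT and 1, 2 and 0 in *rpa12Δ*. Both strains were at or near the floor of 3 counts per library, and no fold is given. Per kilobase of gene, *SUL2* reached 7.68 ± 0.633 RPM in WT and *SUL1* 0.550 ± 0.466 (SD, n = 3 each). *SUL2* therefore had the higher read density of the permease genes in the WT libraries, while the ranges of both genes overlapped in *rpa12Δ*, at 0.184 ± 0.0482 and 0.0819 ± 0.0829 (SD, n = 3 each).

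More reads lay on the opposite strand of *SUL1* than on its own. There, 37, 28 and 28 read ends were found in WT and 55, 33 and 42 in *rpa12Δ*, or 22.3, 19.6 and 24.0 RPM against 11.3, 7.06 and 8.91. *SUL1* supplied most of the opposite-strand reads of all 10 genes, which came to 40, 31 and 32 in WT and 70, 48 and 58 in *rpa12Δ*. In each of the 6 libraries the highest opposite-strand position was the same, 1062 nt from the start codon (chromosome II, 790296), and it took 40.5, 32.1 and 42.9% of them in WT and 58.2, 48.5 and 38.1% in *rpa12Δ*. Its reads had 6 to 17 different lengths per library, from 20 to 74 nt, and 87.5 to 100% of them had a mapping quality above 10, so they were not copies of a single fragment. *SUL2* had 0, 0 and 2 opposite-strand reads in WT and 10, 8 and 11 in the deeper *rpa12Δ* libraries. In that strain they outnumbered the 2, 3 and 2 reads of the *SUL2* transcript, although at 1.71 to 2.33 RPM they overlapped with WT, where the highest library had 1.72.

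**Figure D2:**
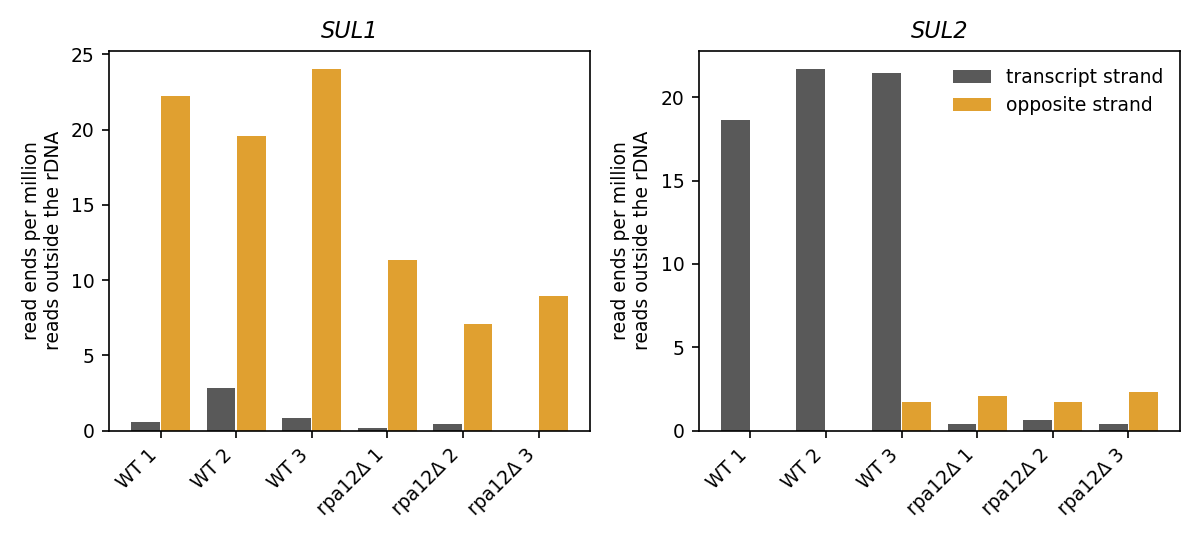
Read ends in RPM on the transcript strand (grey) and on the opposite strand (yellow) of *SUL1* and *SUL2* in each library. *SUL1* has mainly opposite-strand reads in all 6 libraries, whereas *SUL2* has 18.6 to 21.7 RPM on its own strand in WT and under 1 in *rpa12Δ*.

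Met3, the ATP sulfurylase, activates sulfate to adenylyl sulfate. *MET3* (YJR010W, chromosome X, 456239 to 457774) was at 19.8, 16.1 and 10.3 RPM in WT and 2.26, 3.21 and 2.76 in *rpa12Δ*. The WT libraries differed among themselves, and the lowest of them was still above all mutant libraries. The log2 difference was -2.10 (SE 0.28), and the WT level of the summed reads was 5.84 times that of *rpa12Δ* (exact 95% interval 3.88 to 8.89).

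Met14, the adenylyl sulfate kinase, adds a phosphate to the activated sulfate. *MET14* (YKL001C, chromosome XI, 438777 to 439385) was at 10.2, 9.80 and 10.3 RPM in WT and at 3.91, 0.642 and 1.27 in *rpa12Δ*. The WT libraries were close together, while *rpa12Δ* replicate 1, with 19 reads against 3 and 6, stood above the other two. The log2 difference of -2.07 (SE 0.47) became -2.52 without that library, and -1.73 and -1.97 without *rpa12Δ* replicates 2 and 3.

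Met16 reduces the phosphorylated product to sulfite. *MET16* (YPR167C, chromosome XVI, 876847 to 877632) rested on 4, 11 and 11 reads in WT and 16, 7 and 6 in *rpa12Δ*, or 2.41, 7.70 and 9.44 RPM against 3.29, 1.498 and 1.27. It was the gene in which the strains overlapped, because WT replicate 1 lay below *rpa12Δ* replicate 1. Its log2 difference of -1.22 (SE 0.58) was -1.72 without WT replicate 1 and -0.91 without WT replicate 3.

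Sulfite reductase, which makes sulfide, is built from the alpha subunit Met10 and the beta subunit Met5. The levels of both subunit genes were lower in *rpa12Δ* to a similar extent. *MET5* (YJR137C, chromosome X, 678957 to 683285) was at 101, 106 and 112 RPM in WT and 33.1, 25.7 and 24.8 in *rpa12Δ*, a log2 difference of -1.90 (SE 0.13). *MET10* (YFR030W, chromosome VI, 213312 to 216419) was at 53.5, 66.5 and 75.5 in WT and 16.1, 13.9 and 10.8 in *rpa12Δ*, a log2 difference of -2.18 (SE 0.21). The number of *MET5* reads per *MET10* read, which needs no denominator, was 1.89, 1.60 and 1.48 in WT and 2.06, 1.85 and 2.29 in *rpa12Δ*, and the strains overlapped in it.

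Met17, the O-acetylhomoserine sulfhydrylase, joins sulfide to O-acetylhomoserine to give homocysteine. *MET17* (YLR303W, chromosome XII, 732542 to 733876), which is deleted in some laboratory strains as an auxotrophic marker, held 148, 120 and 108 reads in WT and 55, 52 and 66 in *rpa12Δ*, spread over 49 to 132 positions of the gene per library. Its level was 89.0, 84.0 and 92.7 RPM in WT and 11.3, 11.1 and 14.01 in *rpa12Δ*. All WT libraries were above all mutant libraries, with a log2 difference of -2.77 (SE 0.11). The WT level of the summed reads was 7.27 times that of *rpa12Δ* (exact 95% interval 6.06 to 8.76). The gene overlaps YLR302C on the other strand, whose reads were counted apart.

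Met6, the methionine synthase, methylates homocysteine. *MET6* (YER091C, chromosome V, 339864 to 342167) had the most reads of the 10 genes, 280, 225 and 192 in WT and 230, 220 and 203 in *rpa12Δ*. Its level of 168, 158 and 165 RPM in WT and 47.3, 47.1 and 43.1 in *rpa12Δ* varied little within a strain, and the log2 difference was -1.81 (SE 0.05). Str3, the cystathionine beta-lyase, makes homocysteine from cystathionine. *STR3* (YGL184C, chromosome VII, 154615 to 156012) was rare, with 8, 8 and 6 reads in WT and 0, 4 and 2 in *rpa12Δ*. The WT level of its summed reads was 12.3 times that of *rpa12Δ*, with a wide exact 95% interval from 4.83 to 37.0.

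Ratios between the genes are given as a description, since the genes were chosen for this difference and *SUL2* had at most 3 reads per *rpa12Δ* library. For each *MET6* read there were 0.529, 0.533 and 0.562 *MET17* reads in WT and 0.239, 0.236 and 0.325 in *rpa12Δ*. For *SUL2* there were 0.111, 0.138 and 0.130 in WT and 0.00870, 0.0136 and 0.00985 in *rpa12Δ*. In both ratios all mutant libraries were below all WT libraries, and neither ratio depends on how libraries are scaled. *MET5* reads per *MET6* read, in contrast, were 0.651 ± 0.0441 for WT against 0.607 ± 0.0818 for *rpa12Δ* (SD, n = 3 each), with overlapping strains. The strains also overlapped in *MET10* reads per *MET6* read, at 0.399 ± 0.0729 for WT against 0.295 ± 0.044 for *rpa12Δ* (SD, n = 3 each).

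**Figure D3:**
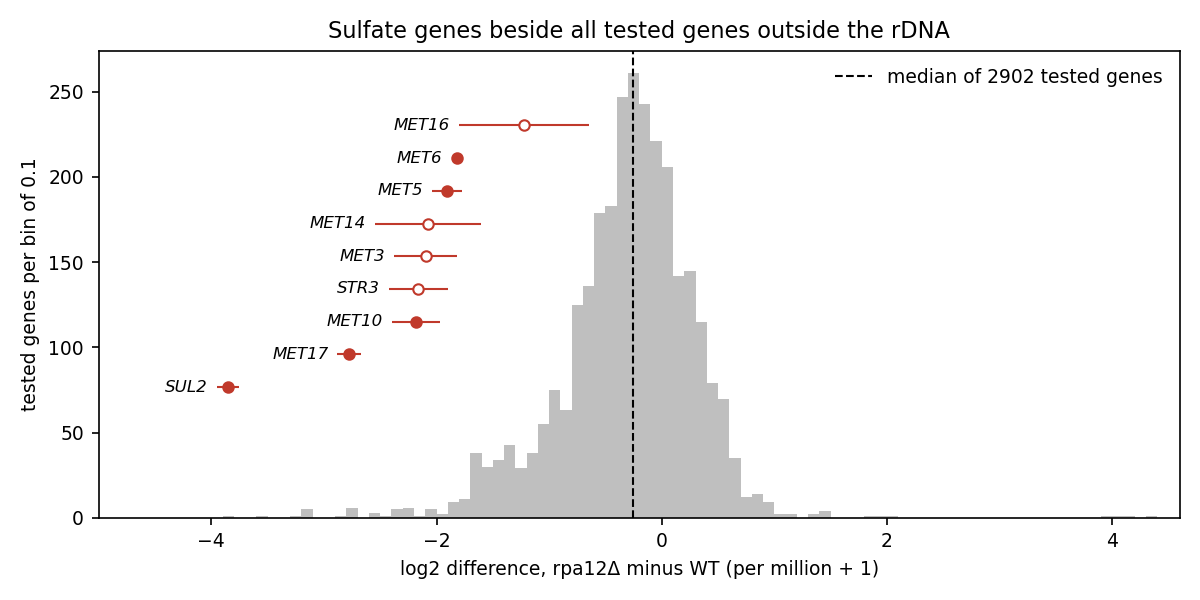
Log2 differences (*rpa12Δ* minus WT, on log2(RPM + 1)) of the sulfate genes other than *SUL1* in red, with the standard error from 3 libraries per strain, above a histogram of the 2902 tested genes in grey. Filled circles mark the 5 genes that averaged at least 10 RPM and open circles the others, and every gene shown lies left of the median of -0.26 (dashed line).

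Per kilobase of gene, the order of the levels in WT was *MET6* (71.0 ± 2.41 RPM), *MET17* (66.3 ± 3.27), *MET5* (24.6 ± 1.22), *MET10* (21.0 ± 3.56), *MET14* (16.6 ± 0.441), *MET3* (10.0 ± 3.13), *MET16* (8.29 ± 4.66), *SUL2* (7.68 ± 0.633), *STR3* (3.71 ± 0.283) and *SUL1* (0.550 ± 0.466; SD, n = 3 each). The ranges of neighbours overlapped for *MET6* and *MET17*, for *MET5* and *MET10*, and along *MET3*, *MET16* and *SUL2*. In *rpa12Δ*, *MET6* (19.9 ± 1.03), *MET17* (9.10 ± 1.21) and *MET5* (6.44 ± 1.06) led in the same order, and here no 2 of these 3 overlapped (SD, n = 3 each). *SUL2* came after *STR3* in *rpa12Δ*, and those genes overlapped.

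Along the coding region, the reads of *MET6*, *MET17* and *MET10* were not gathered at either end, unlike those of *MET5*, which are described below. The part of the gene upstream of its midpoint held 44.0, 42.9 and 50.1% of the summed read ends of the 10 genes in WT and 45.7, 44.0 and 45.1% in *rpa12Δ*, close to the median gene tested, at 45.9 to 46.5% in WT and 47.1 to 47.6% in *rpa12Δ*. In *MET6* this part took 50.1% ± 2.32 for WT against 52.2% ± 1.90 for *rpa12Δ*, and in *MET17* 47.7% ± 6.86 and 43.1% ± 3.42 (SD, n = 3 each). The low counts of *MET16* gave 63.6% ± 32.8 for WT against 18.7% ± 5.63 for *rpa12Δ*, and those of *MET3* 33.8% ± 14.2 against 54.4% ± 8.79 (SD, n = 3 each). *MET5* leaned toward its 3′ end in both strains, with 37.0% ± 6.06 upstream of the midpoint for WT against 32.1% ± 4.86 for *rpa12Δ* (SD, n = 3 each). Part of that lean came from a single position, 4087 nt from the start codon (chromosome X, 679199), which was chosen after its values were seen. It took 16.1, 1.97 and 8.46% of the *MET5* reads in WT and 19.9, 18.3 and 10.3% in *rpa12Δ*, with reads of 3 to 19 different lengths. Without the highest position of each library, the log2 difference of *MET5* was -2.01. Distinct intervals made up 88.7 to 97.9% of the summed reads of *MET5*, *MET10*, *MET17* and *MET6* in either strain, against 15.7 to 23.9% of all reads outside the rDNA per library. This share falls as reads lie more densely, so these values do not compare the extent of PCR copying.

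**Figure D4:**
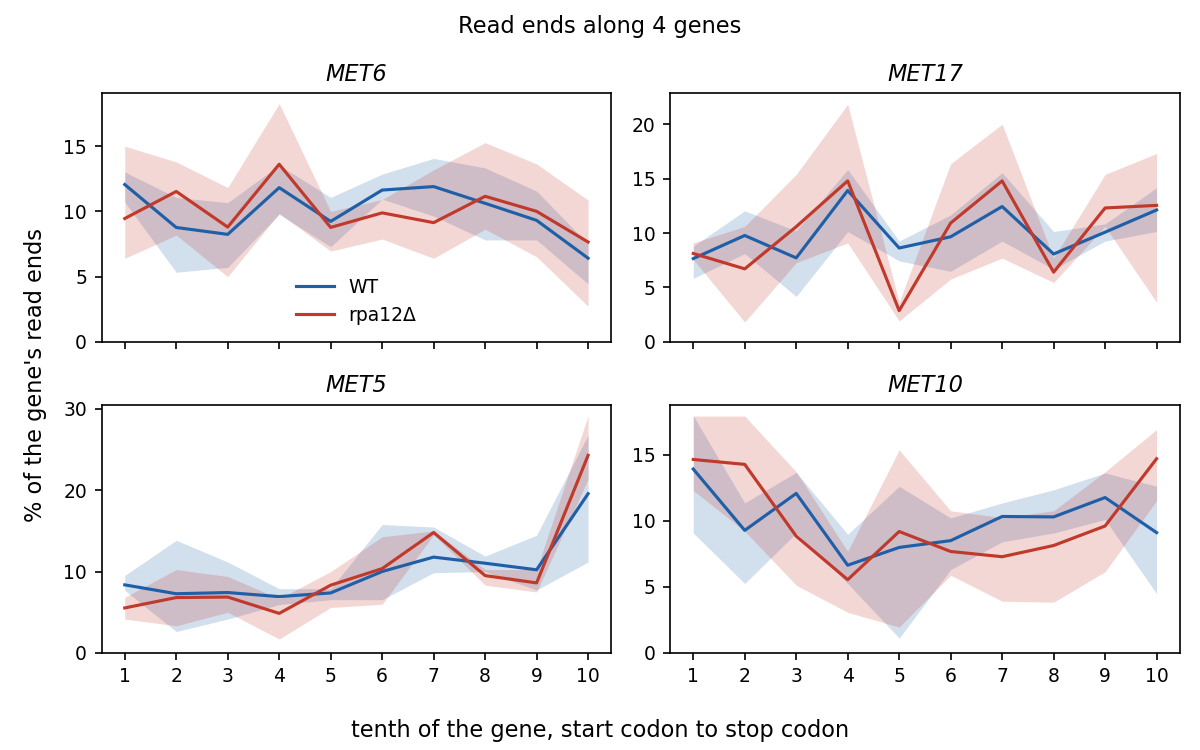
Share of each gene's read ends in each of 10 equal parts of the coding region for *MET6*, *MET17*, *MET5* and *MET10*, as the mean of 3 libraries (line) and their range (shading), with WT drawn in blue and *rpa12Δ* in red. The ranges of the strains overlap over most of each gene, and the last part of *MET5*, which holds the position 4087 nt from the start codon, is high in both.

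Next, 35 other genes of sulfur metabolism were read from a limma fit over all 2902 genes that averaged 10 RPM or more, with Benjamini-Hochberg adjustment at 0.05. Of these 35, 22 were tested, and 9 fell in *rpa12Δ*, or 40.9%, beside 25.7% of all genes tested. The list was chosen with earlier results of these data known, so the shares are a description and nothing is read from their difference. None of the 22 rose, against 5.38% of all genes tested, and 0 were higher at an unadjusted p under 0.05, although the same comparison without variance moderation called 1 higher, *SAH1*. The median log2 difference of the 22 was -0.39, beside -0.26 over all genes. With the other scalings, 6 of the 22 were lower and 2 higher per read in protein-coding genes and with median-ratio scaling, and 5 were lower and 2 higher per read of the whole library. Over all genes, the fit called 747 lower and 156 higher, and this split depended on the scaling, with 477 lower and 491 higher per read in protein-coding genes, 457 and 551 with median-ratio scaling, and 379 and 588 per read of the whole library.

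Among the 22 tested genes, the largest fall was in the methyl cycle. *MET13*, a methylenetetrahydrofolate reductase that supplies the methyl group for Met6, was at 30.1, 40.6 and 24.0 RPM in WT and 6.38, 5.13 and 5.94 in *rpa12Δ* (log2 difference -2.23, SE 0.24, adjusted p = 4.44e-06 from limma). It was the only one of the 8 listed genes of this cycle to pass the test, and 6 others were tested and not called. Among them were *SAM1*, an S-adenosylmethionine synthetase, and *SAH1*, the S-adenosylhomocysteine hydrolase, with log2 differences of 0.21 and 0.20, and both were called higher with each of the other scalings.

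In the branch that makes homoserine and acetylates it, 2 of the 3 tested genes out of 4 fell. *HOM3*, the aspartate kinase, fell by 1.13 on the log2 scale (SE 0.18, adjusted p = 0.000205 from limma), and *HOM2*, the next enzyme of the branch, by 0.86 (SE 0.17, adjusted p = 0.00123 from limma). *HOM6*, which makes homoserine itself, was tested and not called. *MET2*, the homoserine acetyltransferase that makes the substrate of Met17, averaged less than 10 RPM. It was at 9.62, 11.9 and 16.3 RPM in WT and 2.26, 1.498 and 1.27 in *rpa12Δ*, and *MET1*, which acts in the synthesis of siroheme for sulfite reductase, was at 6.02, 13.3 and 9.44 against 3.29, 1.71 and 2.33. Both genes were singled out after their values were seen. In the fit without a filter on low genes, the log2 difference was -2.33 for *MET2* (adjusted p = 0.000177) and -1.58 for *MET1* (adjusted p = 0.00597, limma for both). The same fit ended the calls of *MET4* (adjusted p = 0.0509) and *GSH2* (adjusted p = 0.0561), which are described below.

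Uptake of organic sulfur changed in 2 of the 3 tested genes out of 7. *MUP1*, the high-affinity methionine permease, fell from 84.8, 70.0 and 77.2 RPM in WT to 40.7, 37.7 and 40.8 in *rpa12Δ* (log2 difference -0.94, SE 0.16, adjusted p = 0.000409 from limma). *SAM3*, the S-adenosylmethionine permease, fell by 0.80 on the log2 scale (SE 0.20, adjusted p = 0.00562 from limma). Around cysteine, *STR2*, which makes cystathionine from cysteine, fell by 1.12 (adjusted p = 0.00524) and *CYS3*, which makes cysteine from cystathionine, by 0.52 (adjusted p = 0.0240), and *GSH2*, the glutathione synthetase, fell by 0.64 (adjusted p = 0.0299, limma for all 3).

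Of the 6 regulators, only the activator gene *MET4* passed the test. It was at 18.6, 17.5 and 23.2 RPM in WT and 15.0, 10.3 and 9.13 in *rpa12Δ* (log2 difference -0.75, SE 0.24, adjusted p = 0.0250 from limma). *CBF1*, at 7.22, 11.2 and 15.4 RPM in WT and 10.7, 9.20 and 10.8 in *rpa12Δ*, was not called (adjusted p = 0.859 from limma). *MET30* was not called either (log2 difference -0.33, adjusted p = 0.381 from limma), and the sign turned with each other scaling for *CBF1* and per read of the whole library for *MET30*. *MET28*, *MET31* and *MET32*, whose products bind with Met4, were too low to be tested, at 0.212 to 4.81 RPM over all libraries.

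The calls differed in how firmly they held. *HOM3*, *MET13* and *MUP1* were called under every alternative that could test them, 22, 19 and 22 in number, and *HOM2* under all but distinct intervals counted once. *STR2* lost its call with distinct intervals (adjusted p = 0.0735) and without variance moderation (also 0.0735). *SAM3* lost it in both of these settings (adjusted p = 0.322 and 0.0541), per read of the whole library (adjusted p = 0.0941) and downstream of the gene midpoint (adjusted p = 0.0965). *MET4*, *GSH2* and *CYS3* lost their call with every other scaling, with distinct intervals, without variance moderation and without single libraries, and *CYS3* also downstream of the gene midpoint. For *MET4* and *GSH2*, the libraries were WT replicates 1 and 3 and *rpa12Δ* replicates 2 and 3, and for *CYS3* they were WT replicates 1 and 2 and *rpa12Δ* replicates 2 and 3. Over all alternatives the adjusted p ranged from 0.00332 to 0.372 for *MET4*, from 0.00731 to 0.678 for *GSH2* and from 0.00066 to 0.492 for *CYS3*. Their log2 differences ranged from -0.95 to -0.28, from -0.81 to -0.13 and from -0.68 to -0.15.

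**Figure D5:**
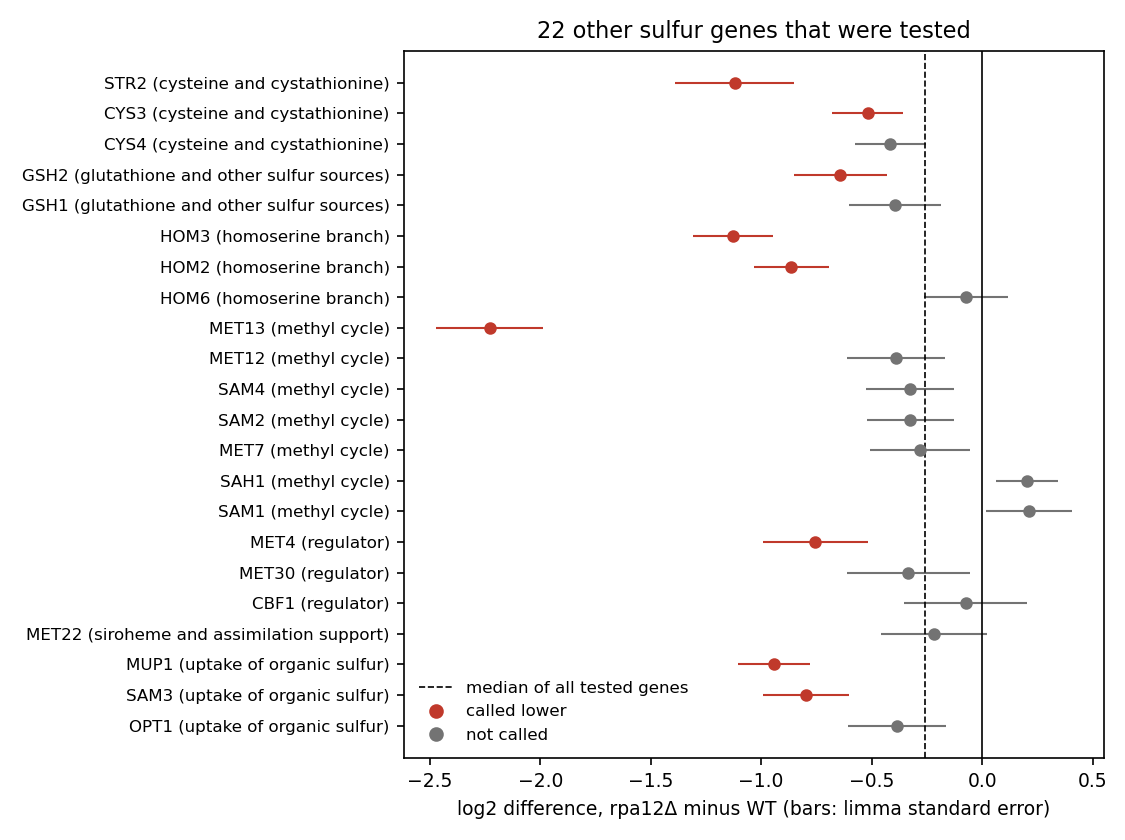
Log2 differences (*rpa12Δ* minus WT) of the 22 other sulfur genes that were tested, grouped by role, with limma standard errors. The 9 genes called lower are in red, led by *MET13* at -2.23, and the dashed line marks the median of all genes tested at -0.26.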

How the data were processed

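NET-seq was carried out on 3 WT and 3 *rpa12Δ* libraries, and all 6 were used. The authors aligned the reads of each library and deposited 1 line per read with its start, end, strand and mapping quality score. The submitters' processing notes name bcl2fastq 2.18.0.012, Trim Galore 0.4.1, BWA 0.6 and SAMtools 1.3.1. The genome build is not given in the sources used here, and coordinates of the R64 gene table were used. A wrong build or a read placed at random would move counts between genes.

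Read 5′ ends outside the rDNA repeats of chromosome XII were counted on the BED strand opposite to each of 6389 nuclear genes, whose strand was taken from the locus tag. They were counted with Python 3.11.15, numpy 2.4.6 and pandas 2.3.3. Counts summed over these genes came to 91.5 to 93.5% of the reads outside the rDNA. A read in overlapping genes on the same strand was counted for each of them. Intervals of ratios came from scipy 1.17.1 and figures from matplotlib 3.10.9. Genes that averaged 10 RPM (read ends per 1000000 reads outside the rDNA) or more were tested with limma 3.58.1 in R 4.3.3 on log2(RPM + 1) with a variance trend, no covariates and Benjamini-Hochberg adjustment at 0.05. On simulated data for these genes, 183 of 200 changed genes were recovered among 2914, and 7 unchanged genes were called. The simulation gave all genes the same dispersion, had no overall shift and changed equal numbers of genes up and down. Its changes were larger than several of the differences called here, so these rates need not hold for the calls above.

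The 10 genes, the list of other sulfur genes and the tests were chosen with earlier results of these data known. Other sulfur genes were named where called, and the regulators in any case. Alternatives changed the pseudocount, filter, denominator, reads, depth, part of the gene, test and replicates. Promoter sequences were not used here.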

Additional observations from a re-analysis of the deposited data

How the results depend on the processing

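The 10 sulfate genes had a lower level in *rpa12Δ* under all 18 alternatives that recomputed them. Not all were lower than the median of the genes tested, since with a pseudocount of 10 RPM only 9 of the 10 were. Downstream of the gene midpoint, *MET16* (-0.31) was close to that median (-0.25). The median log2 difference of the 10 genes, -2.08, stayed within -2.07 to -2.004 when 1 library was left out. It moved to -1.26 with a pseudocount of 10 RPM, -1.79 per read of the whole library, -1.76 with distinct intervals counted once and -1.68 upstream of the gene midpoint. Depth limits *SUL1*, *STR3* and *MET16*, which rest on at most 16 reads per library. It also limits *SUL2*, *MET3* and *MET14* in *rpa12Δ*, with 2 to 3, 11 to 15 and 3 to 19 reads per library.

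Over all genes, 747 were called lower and 156 higher. Leaving out 1 library gave 440 to 1054 lower and 85 to 169 higher, with the lowest counts without *rpa12Δ* replicate 2. The counts of lower and higher genes were 477 and 491 per read in protein-coding genes, 379 and 588 per read of the whole library, 457 and 551 with median-ratio scaling, 445 and 845 with distinct intervals, 336 and 68 upstream of the midpoint and 329 and 79 with the t-test. The lower genes numbered 406 above 30 RPM and 483 downstream of the midpoint, and the higher genes 70 with a mapping quality above 10. Among the other sulfur genes, 9 were called lower and 0 higher. The lower ones numbered 6 to 10 with 1 library left out, 5 above 30 RPM, per read of the whole library, with distinct intervals and with the t-test, and 4 downstream of the midpoint. The higher ones remained 0 with any 1 library left out, were 2 with each of the 3 other scalings and with distinct intervals, and were 1 with the t-test. *CBF1* turned to 0.18, 0.27 and 0.22 with protein-coding, whole-library and median-ratio scaling, to 0.50 with distinct intervals, 0.046 at equal depth and 0.16 without WT replicate 3 (from -0.34 to 0.16 with 1 library left out), and *MET30* to 0.019 per read of the whole library and 0.17 with distinct intervals. Fewer genes were tested under the stricter filter and in parts of genes. With distinct intervals more were tested, 5270 genes with 30 other sulfur genes among them, against 2902 and 22, so those counts come from a larger set. The cause of the other changes was not tested.

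The labels do not say whether libraries with the same replicate number were prepared together. Their deviations from the strain means correlated at 0.17, 0.01 and -0.02. Pairs with different numbers ranged from -0.23 to 0.24, so these correlations do not decide it. With the replicate block, 897 genes were called lower and 216 higher, and 10 and 0 of the other sulfur genes.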

Other observations

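Outside sulfur metabolism, the 5 genes whose levels over the 6 libraries were most like the mean of the 10 sulfate genes were read among the genes tested, by the root mean square distance between log2 profiles centred on their own means. They were YDL124W, *URA2*, YJR028W, *GSY2* and *DUR12*, with distances of 0.14 to 0.21. *URA2* encodes the enzyme that starts pyrimidine synthesis, *GSY2* a glycogen synthase and *DUR12* urea amidolyase, and YJR028W belongs to a Ty1 element with many near-identical copies, so its count is uncertain. *URA2* was at 1079, 1082 and 1111 RPM in WT and 366, 270.4 and 276 in *rpa12Δ*. *DUR12* was at 103, 95.9 and 120.2 in WT and 27.0, 17.8 and 22.5 in *rpa12Δ*. The likeness mainly reflects the difference between strains that was used to choose the sulfate genes, so no test was attached to it.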
